A study of Homo sapiens with 4 samples.

Results

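Replication timing was followed across 3 gene clusters of the skin and hair in single S-phase cells of a colorectal cancer line: the epidermal differentiation complex on chromosome 1, the type II keratin cluster on chromosome 12, and the type I keratin cluster with the keratin-associated proteins on chromosome 17. The clusters were chosen with earlier results of these data known, and the bins within them by position alone. Members are the 80 kb bins that overlap the hg19 windows 151.9 to 153.7 Mb, 52.5 to 53.4 Mb and 38.8 to 39.8 Mb of those chromosomes. This gave 24, 12 and 13 bins, 49 of the 27704 bins in all, and none of the 49 was lost to the filter that a bin be called in 90% or more of each line's cells. The 2 Mb on each side of a cluster served as its flanks.

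The parent line was HCT116, from a human colorectal cancer. The other, DKO1, is HCT116 with knockout of DNMT1 and DNMT3B, the genes of a maintenance and a de novo DNA methyltransferase. Both lines were grown in the same serum-supplemented medium, sorted by DNA content, and pooled in equal numbers from early, mid and late S phase. Each line was 1 S-phase library, with 322 HCT116 and 207 DKO1 cells and 0 cell barcodes shared between them, so no test was made, and differences between the lines have no replicate check. The labels do not say how many clones DKO1 stands for, and DNA methylation was not measured in these cells.

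DNA is copied in a set order in S phase: gene-rich, active chromatin tends to replicate early, and silent, compact chromatin late. The epidermal differentiation complex holds the genes of the cornified envelope, the protein shell of dead skin cells, and is active in keratinocytes. In the order of the RefSeq table, its 63 protein-coding genes run from S100A10 and S100A11, small calcium-binding proteins, through TCHH, RPTN, HRNR, FLG, FLG2 and CRNN, the fused-type S100 proteins, with filaggrin among them, to the late cornified envelope (LCE) genes, IVL (involucrin), the small proline-rich (SPRR) genes and LORICRIN, and end in a second group of S100A genes that closes with S100A1. Keratins form the intermediate filaments of epithelia as pairs of a type I and a type II chain. The type II cluster runs over 27 genes from KRT80 to KRT8 and KRT18, the keratin pair of simple epithelia such as the gut lining. The type I cluster runs over 62 genes from KRT222 to KRT17, with the keratin-associated proteins of hair in its middle and KRT19, KRT14 and KRT17 near its end. Genes were not assigned to bins, because the gene table is of another build (GRCh38.p14) than the bins.

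Most promoters with a sequence in these clusters hold few CG pairs, the pairs that DNA methyltransferases act on. CG, which reads the same on both strands, was counted in the 250 bases before each gene's start in the RefSeq sequences of GRCh38.p14. The median over all 15843 protein-coding genes in the table was 17 CG pairs (quartiles 6 and 26), and 68.6% of them had at least 10. In the epidermal differentiation complex 58 of the 62 genes of the families above and a few small neighbours had a sequence. Their median was 2, and 4 had at least 10: S100A10 and S100A6 with 24 each, and S100A11 and S100A13 with 15 each. The 16 S100A genes had a median of 4, the 18 LCE genes a median of 2 and the 9 SPRR genes a median of 1. In the type I cluster 53 of 61 keratin and keratin-associated protein genes had a sequence, with a median of 1, a highest count of 6 and none at 10 or more. Of the keratin genes 20 of 27 had one. KRT14, KRT17 and KRT19 were among those without, so the count does not speak for them. The 33 keratin-associated protein genes alone had a median of 1. For the type II cluster only 14 of 27 genes had a sequence, too few for the count to stand for the cluster. The counts describe reference sequence and say nothing of the methylation in these cells.

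**Figure D1:**
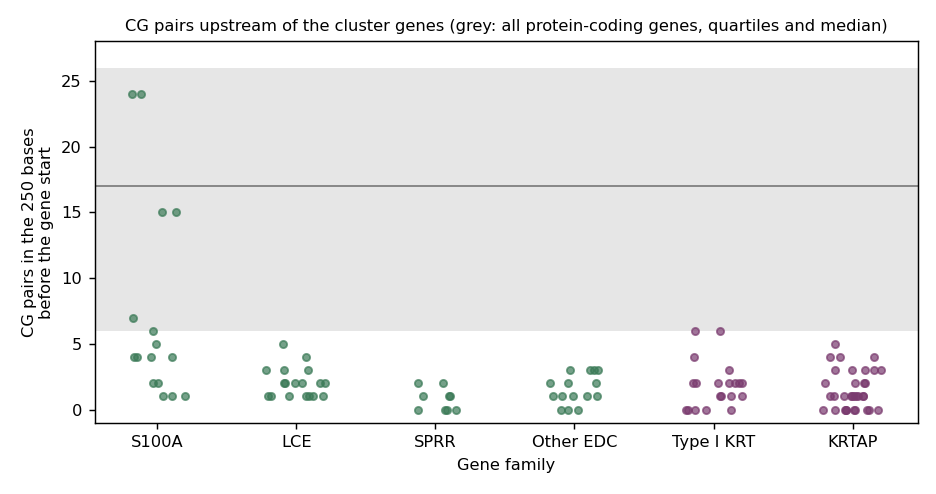
CG pairs in the 250 bases before the gene start (vertical axis) for each gene with a sequence in the epidermal differentiation complex (green) and the type I cluster (purple), by family, with the median and quartiles of all protein-coding genes in grey. The S100A genes reach 24 CG pairs, whereas the genes of every other family drawn have 6 or fewer.

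The promoters with the most and the fewest CG pairs in the epidermal differentiation complex and in the type I cluster show that range. Each is the 250 bases before the start, 5′ to 3′ on the gene's own strand, with every CG pair in capitals. S100A10, a partner of annexin A2 at the plasma membrane, lies at chr1:151993860-151994109 on the minus strand and has 24 CG pairs. CRNN, which encodes cornulin of the squamous epithelium, lies at chr1:152414264-152414513 on the minus strand and has 0. KRT40, a hair keratin, lies at chr17:40987002-40987251 on the minus strand and has 6. KRT10, the type I keratin of the upper epidermis, lies at chr17:40822615-40822864 on the minus strand and has 0.
S100A10: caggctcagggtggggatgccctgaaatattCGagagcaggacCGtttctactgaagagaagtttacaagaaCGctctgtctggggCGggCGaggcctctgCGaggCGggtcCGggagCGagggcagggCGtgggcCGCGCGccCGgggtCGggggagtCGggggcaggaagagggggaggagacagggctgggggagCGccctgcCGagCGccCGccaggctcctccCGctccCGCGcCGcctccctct
CRNN: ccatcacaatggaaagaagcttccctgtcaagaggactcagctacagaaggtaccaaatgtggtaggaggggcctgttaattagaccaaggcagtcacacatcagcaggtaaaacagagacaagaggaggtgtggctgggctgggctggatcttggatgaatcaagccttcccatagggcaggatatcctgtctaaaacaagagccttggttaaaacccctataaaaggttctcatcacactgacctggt
KRT40: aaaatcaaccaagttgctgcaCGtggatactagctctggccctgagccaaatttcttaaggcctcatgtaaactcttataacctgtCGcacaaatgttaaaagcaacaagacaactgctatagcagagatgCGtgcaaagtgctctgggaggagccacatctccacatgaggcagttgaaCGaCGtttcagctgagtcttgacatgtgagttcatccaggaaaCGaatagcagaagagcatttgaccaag
KRT10: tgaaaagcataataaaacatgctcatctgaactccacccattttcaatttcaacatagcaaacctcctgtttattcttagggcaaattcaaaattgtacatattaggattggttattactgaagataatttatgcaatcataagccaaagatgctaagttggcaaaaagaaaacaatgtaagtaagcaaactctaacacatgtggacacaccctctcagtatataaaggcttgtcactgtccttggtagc

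The state of each bin in each cell was read as replicated or unreplicated, and a cell's S-phase progress was taken as its replicated bins in percent of those called. Median progress was 52.7% in HCT116 and 48.8% in DKO1. To compare the lines at similar progress, cells were sorted into 6 strata of 10 points from 20 to 80% progress, each with the same weight. The result for a bin, in percent of cells, is called its standardised share. The strata held 33, 48, 60, 78, 82 and 19 HCT116 cells and 11, 41, 53, 51, 40 and 10 DKO1 cells, so the lowest and the highest stratum of DKO1 rest on few cells. Progress was not equal within strata. Its medians were 26.1, 34.8, 45.6, 54.6, 65.1 and 72.4% in HCT116. In DKO1 they were 27.9, 36.5, 43.5, 54.0, 65.6 and 71.6%. Over all 27142 bins used, shares had a median of 50.7% in HCT116 and 48.1% in DKO1, and the median difference, DKO1 minus HCT116, was 0.01 points (quartiles -5.77 and 6.04). The 95% intervals given are exact binomial (Clopper-Pearson) intervals on plain percents of cells. They cover the counting error of cells only. Cells of 1 library are not replicates, neighbouring bins are not independent, and the read depth behind a call is unknown.

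The epidermal differentiation complex was a valley that replicated later than its early-replicating flanks in both lines, and the valley was shallower in DKO1. In HCT116 its deepest bin, at 23.4%, lay below the median of all bins used (50.7%), whereas the deepest bin in DKO1, at 50.9%, lay above that line's median (48.1%). The mean over its bins was 67.6% in HCT116 and 78.4% in DKO1 (10.8 points higher in DKO1), against 96.8% and 95.7% in its flanks (-1.06 points). Cluster minus flanks was thus -29.2 points in HCT116, against -17.3 points in DKO1. The lower flank mean of DKO1 rested on the few cells with mostly unreplicated flanks, 5 of 205 in DKO1 and 1 of 320 in HCT116. Ranked among all bins used, a share equal to the cluster's mean lay at percentile 61.7 in HCT116 and percentile 74.3 in DKO1. The keratin clusters were early in both lines, at 94.4% and 97.7% for type II and 94.7% and 95.5% for type I.

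**Figure D2:**
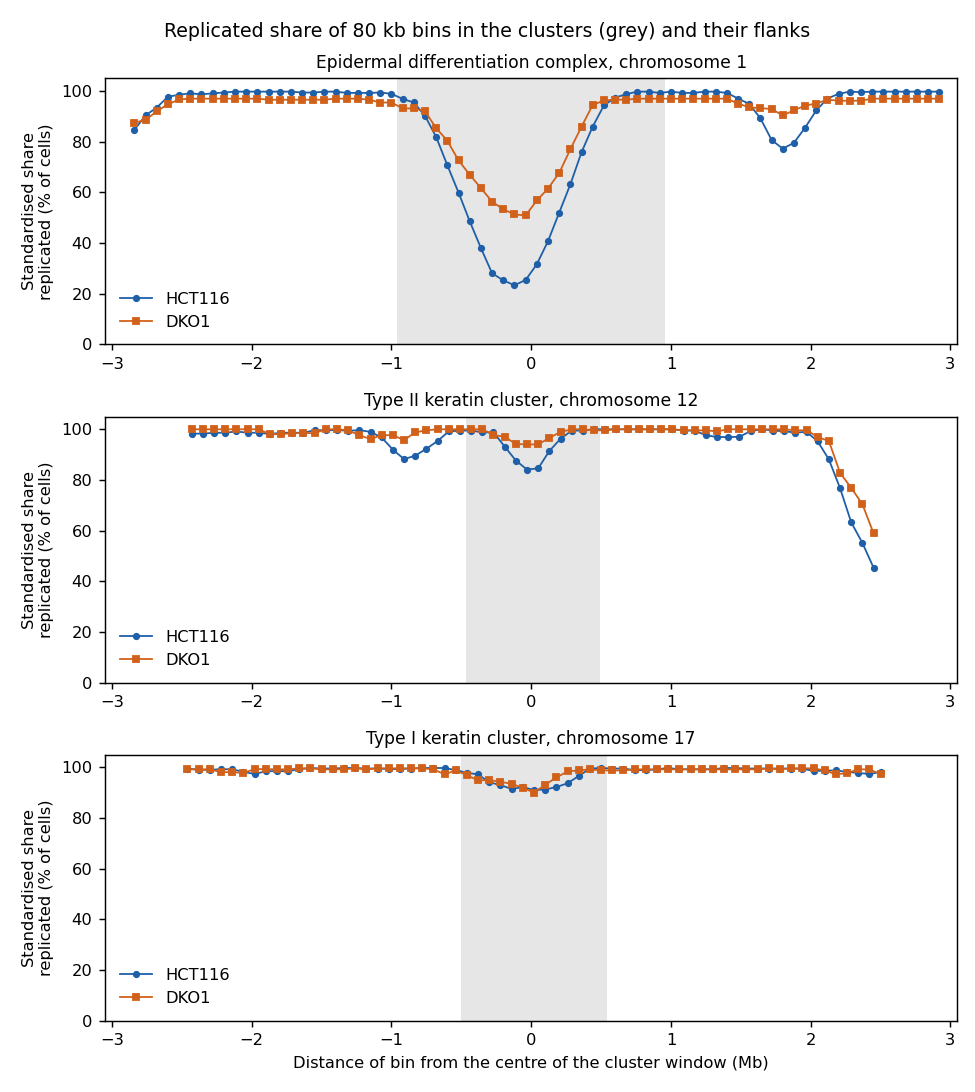
Standardised share of cells in which each 80 kb bin was replicated (vertical axis, percent) against the distance from the centre of the window (Mb), for HCT116 (circles) and DKO1 (squares), with the cluster in grey. The valley of the epidermal differentiation complex reaches 23.4% in HCT116 and 50.9% in DKO1, while neither keratin cluster falls below 84.1% in either line.

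The difference between the lines was found in the middle of the complex and faded towards both edges. Each cluster was split by position into 3 equal parts. The first part of the complex, at the S100A10 end, had a mean share of 72.7% in HCT116 and 80.7% in DKO1 (7.96 points). The middle part had 36.2% and 59.4%, a difference of 23.2 points. The last part, at the S100A1 end, had 93.9% and 95.1%, a difference of 1.22 points. Read as ranks among all bins, the mean of the middle part lay at percentile 40.7 in HCT116 and 59.0 in DKO1. For the middle part minus the flanks the values were -60.6 and -36.3 points.

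Of the 24 bins, 17 had a higher share in DKO1 and 7 a lower one. A difference of at least 15 points higher was reached by 9 bins of the complex and at least 15 points lower by 0, where 6.90% of all bins used were higher and 7.39% lower by that much. Since a share cannot pass 100%, 14 of the 24 bins, those at 85% or less in HCT116, could have been 15 points higher. All 9 lay side by side, the last 2 bins of the first part and 7 of the 8 bins of the middle part. The member just inside the threshold, at 152960001 to 153040000, differed by 15.7 points (52.0% and 67.7%), and its neighbour just outside, at 153040001 to 153120000, by 13.9 points (63.2% and 77.1%). Bins elsewhere that had similar shares in HCT116 give a nearer comparison. Among the 1799 bins with an HCT116 share of 20 to 30%, the median difference was 4.29 points (quartiles -2.77 and 11.6) and 16.2% were at least 15 points higher in DKO1. Among the 7040 bins at 20 to 60% the median was 0.05 points and 11.0% were at least 15 points higher. The 8 bins of the middle part differed by 13.9 to 28.3 points.

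The latest bin of the complex in HCT116, chr1:152640001-152720000, was replicated in 63 of 321 HCT116 cells (19.6%, interval 15.4 to 24.4%) against 101 of 205 DKO1 cells (49.3%, 42.2 to 56.3%). Its standardised shares were 23.4% and 51.3%. The bin with the highest difference, chr1:152480001-152560000, was replicated in 83 of 321 HCT116 cells (25.9%, 21.2 to 31.0%) against 116 of 205 DKO1 cells (56.6%, 49.5 to 63.5%), with standardised shares of 28.1% and 56.4%. Both bins were chosen by these values, so their intervals describe counting error and are no separate evidence of a difference. The bin next to the latest one, chr1:152720001-152800000, was the latest of DKO1, at 25.4% in HCT116 and 50.9% in DKO1 (99 of 205 DKO1 cells against 101 of 205 in its neighbour), so the lowest points of the lines cannot be told apart. At the edges DKO1 was slightly lower. There the flanks were wholly unreplicated in 5 of 205 DKO1 cells and 1 of 320 HCT116 cells, which lowers the DKO1 shares. Early bins over the genome were also slightly lower in DKO1, and whether few cells account for that was not tested. The 3400 bins with an HCT116 share of 95 to 100% had a median difference of -1.83 points. The first bin of the complex, chr1:151840001-151920000, had the lowest difference, -3.75 points (96.9% and 93.2%), with intervals that overlapped (94.8 to 98.7% and 91.3 to 97.6% of cells). The earliest bin in HCT116, chr1:153520001-153600000, had 99.8% and 97.0%.

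The valley was narrower in DKO1 at each level read, and the lines were furthest apart at a share of 50%. Bins under a share of 50% covered 0.64 Mb in HCT116 and none of the complex in DKO1. Bins under 75% covered 0.96 Mb in HCT116 and 0.80 Mb in DKO1. Read off by linear interpolation between bin centres, the valley was 0.99 Mb wide in HCT116 and 0.81 Mb wide in DKO1 at a share of 75%, and 1.24 and 1.13 Mb wide at a share of 90%. A second, shallow dip lay in the flank on the S100A1 side. At its lowest bin, chr1:154560001-154640000, the values were 77.3% in HCT116 against 90.4% in DKO1, and this difference of 13.1 points was the highest in either flank of the complex.

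Followed through S phase, the middle part was replicated in most cells only late in HCT116 and about a stratum earlier in DKO1. At 40 to 50% progress, most of its called bins were replicated in 2 of 60 HCT116 cells (3.33%, interval 0.41 to 11.5%) against 14 of 53 DKO1 cells (26.4%, 15.3 to 40.3%). At 50 to 60% the counts were 23 of 77 (29.9%, interval 20 to 41.4%) and 39 of 51 (76.5%, 62.5 to 87.2%). At 60 to 70% they were 44 of 82 (53.7%, 42.3 to 64.7%) and 36 of 40 (90%, 76.3 to 97.2%). The intervals of the lines did not overlap in these 3 strata. Earlier, at 20 to 30%, the counts were 0 of 33 HCT116 cells, which allows a share of up to 10.6% by the exact interval, and 1 of 10 DKO1 cells. At 30 to 40% they were 1 of 48 and 6 of 41, and at 70 to 80% they were 16 of 19 and 9 of 9. The intervals overlapped in those strata.

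**Figure D3:**
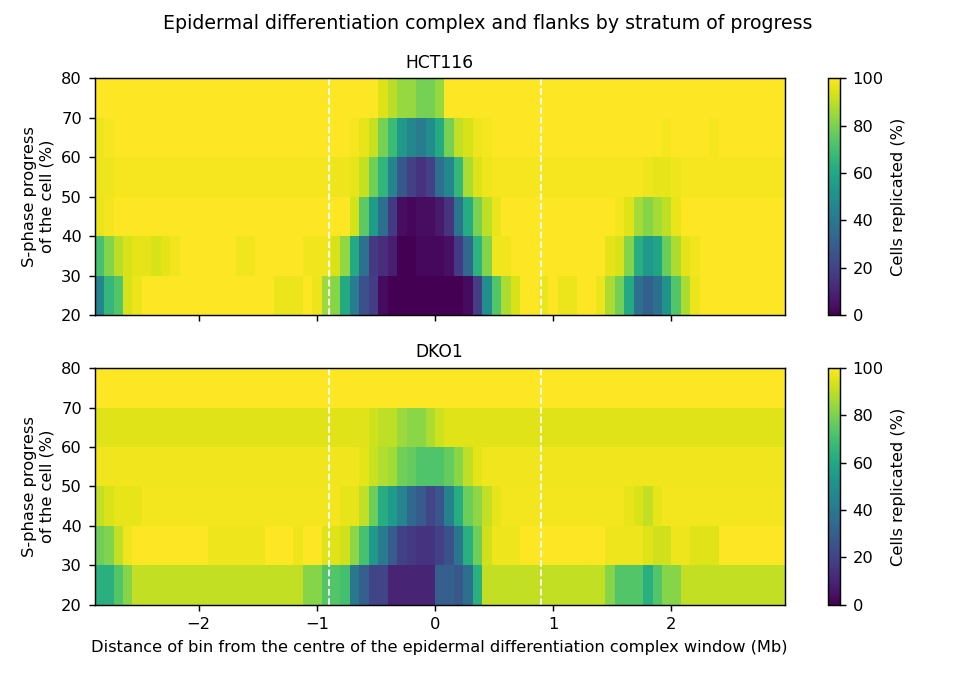
Percent of cells in which each bin of the epidermal differentiation complex and its flanks was replicated (colour), by distance from the centre of the window (horizontal axis, Mb) and by stratum of S-phase progress (vertical axis, percent), for HCT116 above and DKO1 below, with the window between dashed lines. The dark unreplicated wedge narrows towards its centre as progress rises, and it is gone by the stratum of 70 to 80% in DKO1, where 9 of 9 cells had most of the middle part replicated.

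The first part of the complex was replicated earlier, and there the lines were furthest apart at 30 to 40% progress. Most of it was replicated in 8 of 33 HCT116 and 3 of 10 DKO1 cells at 20 to 30%, in 19 of 48 (39.6%, interval 25.8 to 54.7%) and 30 of 41 (73.2%, 57.1 to 85.8%) at 30 to 40%, and in 45 of 60 and 49 of 53 at 40 to 50%. The intervals at 30 to 40% did not overlap. The last part was already mostly replicated at 20 to 30% progress, in 29 of 33 HCT116 and 10 of 11 DKO1 cells.

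Over mid-S cells, those at 40 to 60% progress, most of the middle part was replicated in 25 of 137 HCT116 cells (18.2%, interval 12.2 to 25.7%) against 53 of 104 DKO1 cells (51.0%, 41.0 to 60.9%). The difference of 32.7 points was 20.1 points with bins kept only if 99% or more of cells had a call. All bins of the complex passed that filter. It changed which cells counted as mid-S, since progress was then taken from 8044 bins. On a logistic curve of replicated share against progress from the other chromosomes, the middle part was 50% replicated at a progress of 58.1% in HCT116 and 44.3% in DKO1 (DKO1 minus HCT116, -13.8 points). The first part was 50% replicated at 32.3% and 25.6%. The curve's width from 25 to 75% replicated was 19.1 points of progress in HCT116 and 19.3 in DKO1 for the middle part.

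**Figure D4:**
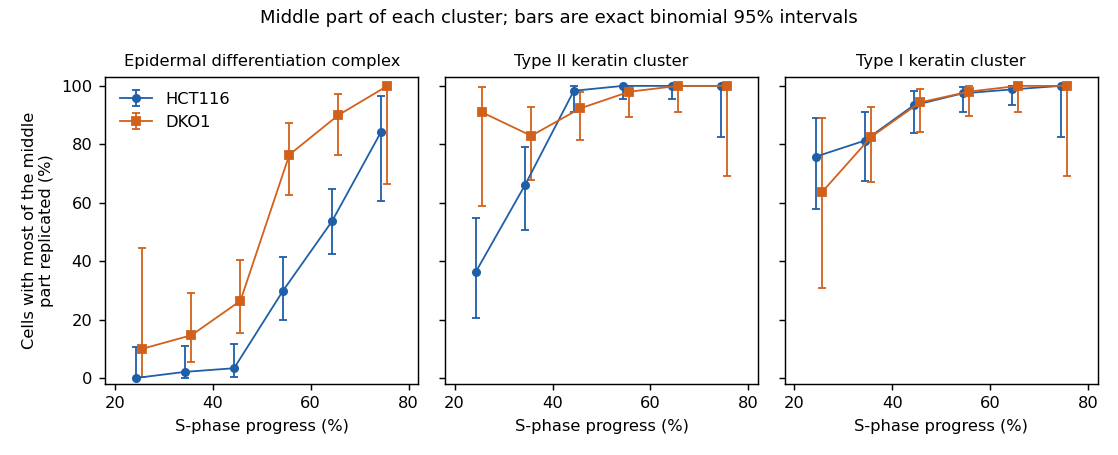
Percent of cells with most of the middle part of each cluster replicated (vertical axis) against S-phase progress (horizontal axis, percent), with exact binomial 95% intervals as bars, for HCT116 (circles) and DKO1 (squares). In the epidermal differentiation complex DKO1 is above HCT116 in each stratum, for example 76.5% against 29.9% at 50 to 60% progress, while in the type I cluster the lines' intervals overlap in every stratum.

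In most single mid-S cells the complex, as bounded by its window, was partly replicated. It was fully replicated in 9, partly replicated in 128 and wholly unreplicated in 0 of 137 mid-S HCT116 cells, and in 39, 63 and 2 of 104 mid-S DKO1 cells. What was unreplicated was nearly always a single stretch inside the complex. Of the 267 HCT116 cells at 20 to 80% progress with any unreplicated bin there, 256 had 1 stretch that touched neither edge, and of 118 such DKO1 cells 107 did. The centre of these inner stretches had a median of 0.12 Mb before the centre of the window in both lines (-0.12 Mb), towards the S100A10 end. In these cells both edges of the complex were replicated and the unreplicated part lay between them. The window takes in early DNA at both ends (96.9% in the first bin and 99.3% in the last in HCT116). Partly replicated cells and inner stretches were thus largely set by where the window was drawn. The middle part alone was partly replicated in 97 of 137 HCT116 and 55 of 104 DKO1 mid-S cells. The calls carry the label of a hidden Markov model, a method that links neighbouring bins. How far this shaped the stretches was not tested.

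The stretch shortened with progress in both lines and was shorter in DKO1 in each stratum that could be compared. Its median length in HCT116 was 1.2 Mb at 20 to 30% progress, 0.96 Mb at 30 to 40%, 0.72 Mb at 40 to 50%, 0.56 Mb at 50 to 60% and 0.40 Mb at 60 to 70%. In DKO1 it was 0.96, 0.72, 0.56, 0.40 and 0.36 Mb in the same strata. Each median of DKO1 in the first 4 strata equals the HCT116 median of the next. Cells with any unreplicated bin were also fewer in DKO1. At 50 to 60% progress they were 69 of 77 in HCT116 (89.6%, interval 80.6 to 95.4%) and 21 of 51 in DKO1 (41.2%, 27.6 to 55.8%). At 60 to 70% they were 54 of 82 (65.9%, 54.6 to 76.0%) and 8 of 40 (20%, 9.05 to 35.6%).

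**Figure D5:**
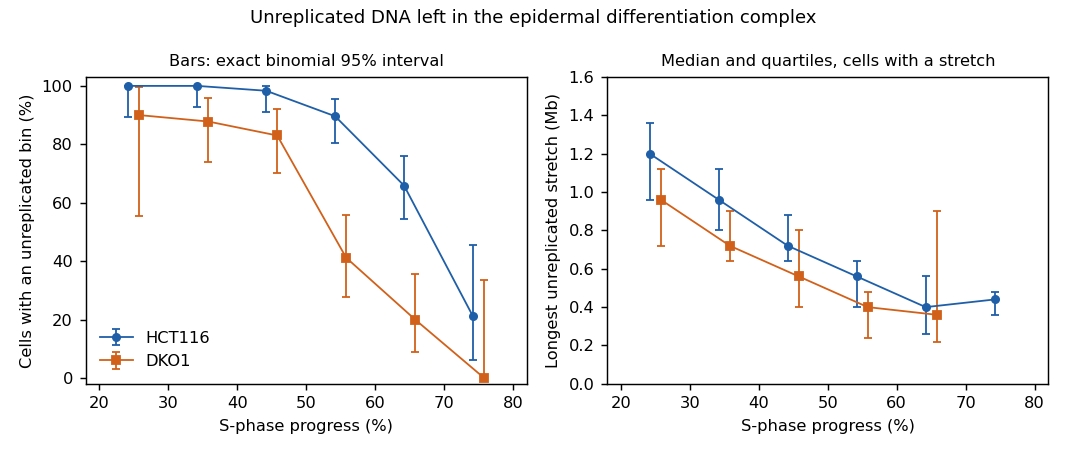
Left, percent of cells with an unreplicated bin in the epidermal differentiation complex, with exact binomial 95% intervals; right, median and quartiles of the longest unreplicated stretch (Mb) in those cells; both against S-phase progress (percent), for HCT116 (circles) and DKO1 (squares). The median stretch falls from 1.2 to 0.40 Mb in HCT116 and from 0.96 to 0.36 Mb in DKO1 between 20 to 30% and 60 to 70% progress.

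A few cells stood apart. The complex was wholly unreplicated in 0 HCT116 cells and in 4 DKO1 cells, at progress 40.3, 58.8, 65.3 and 69.7%. In these 4 cells the unreplicated run went far beyond the complex, over 248, 104, 28.8 and 55.3 Mb of chromosome 1. The flanks of the complex were mostly unreplicated in 1 of 320 HCT116 and 5 of 205 DKO1 cells. A chromosome 1 more than 15 points off the line of its replicated percent on that of the cell's other chromosomes was seen in 3 HCT116 and 6 DKO1 cells. Without cells whose cluster chromosome was outlying in this way, the difference of the complex was 10.6 points and that of its middle part 22.8 points. Of the 5 DKO1 cells with mostly unreplicated flanks 1 was outlying. Without the cells with mostly unreplicated flanks, the differences were 12.6 and 24.4 points. Cluster minus flanks was then -29.2 points in HCT116 and -18.3 points in DKO1, so the flank mean was no longer lower in DKO1.

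How often cells of similar progress differed from each other in the complex gave no settled order of the lines. Between pairs of mid-S cells within 5 points of progress, 18.8% of its bins differed in HCT116 and 19.9% in DKO1. Over all bins used, 17.1% differed in HCT116 and 23.1% in DKO1. In the middle part the values were 30.6% and 39.2%. Pairs can differ most where a share is near 50%. Mid-S cells had on average 29.7% of the middle part replicated in HCT116 and 59.6% in DKO1. The values of the middle part thus do not measure the variability of cells alone. The difference of 1.11 points in the complex was 0.25 points without cells with mostly unreplicated flanks. It was 5.84 points with bins called in 99% or more of cells, a filter that changed the mid-S cells rather than the bins of the complex. It was -1.40 points with only cells in which at most 1% of bins were not called, and -0.64 with uncalled bins counted as unreplicated.

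The type II keratin cluster was early in both lines, with a shallow dip in its middle that was deeper in HCT116. Its mean share was 94.4% in HCT116 against 97.7% in DKO1, at percentiles 86.6 and 95.4 of all bins used. The middle part had 87.0% and 94.7%, a difference of 7.76 points. The first part, at the KRT80 end, had 97.6% and 98.7%, and the last part, at the KRT8 and KRT18 end, had 98.8% and 99.6%. None of its 12 bins was at least 15 points lower in DKO1, against 7.39% of all bins. None was 15 points higher (6.90% of all bins), but only 2 of the 12 were low enough in HCT116 for such a rise, so that count was nearly fixed by the ceiling of 100%. The latest bin in both lines, chr12:52880001-52960000, had the highest difference, 9.93 points (84.1% and 94.0%). It was replicated in 283 of 321 HCT116 cells (88.2%, interval 84.1 to 91.5%) and 190 of 204 DKO1 cells (93.1%, 88.8 to 96.2%), and these intervals overlap. The lowest difference, at chr12:52640001-52720000, was -1.03 points (98.8% and 97.8%), and the earliest bin, chr12:53360001-53440000, was replicated in 321 of 321 HCT116 and 203 of 204 DKO1 cells.

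The difference in the type II cluster was seen in early S phase. At 20 to 30% progress, most of its middle part was replicated in 12 of 33 HCT116 cells (36.4%, interval 20.4 to 54.9%) and 10 of 11 DKO1 cells (90.9%, 58.7 to 99.8%). At 30 to 40% the counts were 31 of 47 (66.0%) and 34 of 41 (82.9%), with intervals that overlap (50.7 to 79.1% and 67.9 to 92.8%). At 40 to 50% they were 59 of 60 and 48 of 52, with the lines in the other order. The mean difference of 3.24 points was 0.19 points over the strata from 30 to 70%, 1.48 points without matching of progress, and -0.90 points in cells with at most 1% of bins not called, taken over the strata from 30 to 70% as well. It thus rested mostly on the lowest stratum, with 11 DKO1 cells. Bins with an HCT116 share of 80 to 100% had a median difference of -2.78 points over the genome (7757 bins).

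Against its flanks, the type II cluster as a whole did not stand out. Cluster minus flanks gave -0.38 points in HCT116, against 0.63 points in DKO1, and for the middle part these values were -7.87 and -2.34 points. With flanks of 1 Mb, which leave out the fall to 45.3% and 58.9% at the far end of the right flank, cluster minus flanks was -3.19 and -1.53 points. Over the strata from 30 to 70% it was 1.19 and -0.28 points, and over the same strata with only cells in which at most 1% of bins were not called it was 1.39 and -1.85 points. An unreplicated bin was seen in the cluster in 48 of 319 HCT116 and 17 of 203 DKO1 cells at 20 to 80% progress. In 47 and 16 of these cells it was a single stretch that touched no edge, with a median length of 0.24 Mb in both lines, shorter than the stretches of the epidermal differentiation complex (0.72 and 0.64 Mb).

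The type I keratin cluster had nearly the same profile in both lines. Its mean share, 94.7% in HCT116, was 0.83 points higher in DKO1 (95.5%), and 7 of its 13 bins were higher and 6 lower in DKO1. That difference ranged from -0.65 to 1.32 points over the alternatives and so had no settled direction. None of its bins was at least 15 points lower in DKO1, against 7.39% of all bins used. With every bin above 91% in HCT116, none could be 15 points higher. The cluster stood slightly below its flanks, which were at 99.2% and 99.1%, with cluster minus flanks of -4.53 and -3.62 points. Its latest bin in both lines, chr17:39280001-39360000, lay in the middle of the window, and had 91.1% and 90.1%. It was replicated in 298 of 322 HCT116 and 192 of 206 DKO1 cells. The highest difference was 4.66 points, at chr17:39520001-39600000 (93.8% and 98.4%), and the lowest -2.31 points, at chr17:38880001-38960000 (97.2% and 94.9%). The earliest bin, chr17:39760001-39840000 at the KRT17 end, had 99.8% and 98.8%.

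The middle part of the type I cluster was seldom called mixed in HCT116 cells, and the effect of calls that link neighbouring bins was not tested. At 20 to 30% progress the middle part was fully replicated in 24, wholly unreplicated in 7 and mixed in 2 of 33 HCT116 cells, and in 7, 1 and 3 of 11 DKO1 cells. At 30 to 40% the counts were 39, 7 and 2 of 48 and 33, 5 and 2 of 40. The longest unreplicated stretch, in the 29 HCT116 and 19 DKO1 cells that had one at 20 to 80% progress, had a median of 0.48 and 0.32 Mb. The whole cluster was unreplicated in 1 HCT116 and 1 DKO1 cell, in which the run went on over 10.2 and 25.3 Mb of chromosome 17.

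Within single mid-S cells, the keratin clusters were nearly always as far or further replicated than the epidermal differentiation complex. In HCT116 the replicated share of the type II cluster was above that of the complex in 129 of 138 cells, equal in 9 and below it in 0. For the type I cluster the counts were 126, 9 and 3. In DKO1 the type II cluster was ahead in 63 of 102 cells, equal in 36 and behind in 3, and the type I cluster was ahead in 62 of 104, equal in 39 and behind in 3. Between pairs of mid-S cells, 0.31% of the bins of the type II cluster differed in HCT116 and 2.62% in DKO1, and 4.02% and 4.18% of those of the type I cluster.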

How the data were processed

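Single-cell replication sequencing reads DNA copy number along the genome of 1 cell. What the authors deposited is a score for each cell and 80 kb bin, a state code labelled as binarised from a hidden Markov model (HMM). Columns are cells of HCT116 or DKO1, per the file headers. Tools in the submitters' processing notes are SAMtools 1.10, bedtools 2.26.0 and Cell Ranger, with GRCh37 (hg19) as the build. Filters and depth per cell were not given in the sources used here. The table does not say what its codes mean. Code 2 was read as replicated, 1 as unreplicated and 0 as not called. Under this reading the gene-rich chromosomes 17, 19 and 22 had the highest mean standardised shares (73.1, 68.0 and 79.8% in HCT116). Those shares already use the reading, so they are a check on the direction of codes 1 and 2 only.

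Shares, intervals, curves and stretches were computed in Python 3.11.15 with numpy 2.4.6, pandas 2.3.3, scipy 1.17.1 and statsmodels 0.14.6. Only the standardised share was tried on simulated data, in which bins were drawn independently of each other. "Most replicated" means over 50% of the called bins of a cell with at least 80% of a cluster's bins called. A chromosome was outlying if its replicated percent lay more than 15 points from a straight line on that of the cell's other chromosomes, drawn per line. Bins named alone are those with the highest and lowest difference and the earliest and latest in HCT116. The latest bin of DKO1, the bins on both sides of the threshold and the lowest flank bin were chosen after their values were seen. Alternatives changed the reading of code 0, the filter on called bins, the strata, the matching, the cells, the window, the flanks and the threshold. Leaving out cells with an outlying chromosome or with mostly unreplicated flanks was chosen after seeing the data. The clusters and lists were chosen with earlier results of these data known. No doublet caller was run. The G1 libraries were not analysed here.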

Additional observations from a re-analysis of the deposited data

Results flagged for a closer look

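Calls of code 0, which the comparisons leave out, were more frequent in DKO1 than in HCT116 in each cluster. They took 0.725% of the calls of the epidermal differentiation complex in DKO1 and 0.0647% in HCT116, in 2 and 1 cells. In the type II keratin cluster they took 1.45% and 0.311%, in 3 and 1 cells. In the type I keratin cluster they took 0.483% and 0.0956%, in 1 and 1 cells. As shares of cells, the exact 95% intervals of the lines overlapped in each cluster, for example 0.30 to 4.18% in DKO1 and 0.01 to 1.72% in HCT116 for the type II cluster.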

How the results depend on the processing

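Over 19 results and 14 alternatives, 212 of 222 recomputed values stayed within a set allowance of the value reported. For counts of bins it was 1.5 times, and 10 values moved beyond the allowance. For the rest it came from the exact interval on the percent of DKO1 cells with most of a cluster replicated. It is not a spread of each result. It was 4.32 points for the complex, 7.06 for its middle part, 1.35 for the type II and 2.92 for the type I cluster. It was 9.96 points for the mid-S difference, the shift in progress and pair discordance. Pair discordance from -1.40 to 5.84 points thus counted as within it. Part of the 212 could not move, so the tally does not measure robustness. The mid-S difference, the shift in progress and pair discordance use neither strata nor matching, and kept identical values when these changed. Counts of higher bins stayed at 0 in both keratin clusters. At 15 points, 0 of 13 type I bins and 2 of 12 type II bins could have risen that far. The sign turned in 12 recomputed values, of 5 results: the difference and cluster minus flanks (both lines) of the type II cluster, the difference of the type I cluster, and pair discordance in the epidermal differentiation complex. The other results of the complex kept their direction. Its difference ranged from 8.93 to 13.4 points, that of its middle part from 21.3 to 27.8 points, the shift in the progress at which the middle part was 50% replicated from -14.7 to -13.7 points, and the bins at or above the threshold from 7 to 12. Cluster minus flanks of the complex in HCT116 was -33.9 points with code 0 read as unreplicated, where only 5 strata from 20 to 70% held enough cells. Its mid-S difference was 20.1 points under the filter of 99% on called bins, which lost no bin of the complex but changed the mid-S cells. For the type II cluster, cluster minus flanks was -1.85 points in DKO1 and 1.39 in HCT116 in cells with at most 1% of bins at code 0 (also limited to strata from 30 to 70%), -1.53 and -3.19 points with 1 Mb flanks, and 1.19 points in HCT116 with strata from 30 to 70%. Its difference was -0.896 points in those cells and strata, 1.48 without matching and 0.190 with strata from 30 to 70%. The cells with little code 0 were 187 of HCT116 and 60 of DKO1. No bin of the type II cluster passed the 99% filter. No paired analysis was possible because each line was 1 library. The number of cells, 11 of DKO1 in the lowest stratum and 10 in the highest, limits what can be seen there.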
